A study of Mus musculus with 6 samples.

Results

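The comparison described here sets the 2 scrambled control groups of a microRNA overexpression study against each other. The study delivered miR-128 or a scrambled miRNA by lentivirus to primary vascular smooth muscle cells (VSMC), the contractile cells of the arterial wall, and measured mRNA on Illumina bead arrays. The members are the 4 arrays titled shScr1 (replicates A and B) and shScr2 (replicates A and B), of 6 arrays in all. The difference, always shScr2 minus shScr1, was tested across the 7885 genes detected on both arrays of at least 1 of the groups (detection p under 0.05), of 16593 genes with a named probe.

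Both groups were cells of C57BL/6J mice aged 8 weeks, both received a lentivirus labelled as carrying a scrambled miRNA, and both were selected with puromycin for 2 days, with RNA taken after 5 days. The remaining arrays (mir128, replicates A and B) came from cells given the miR-128 virus under the same conditions, and they entered neither the normalization nor the fit. The submitters call the replicates biological. Each p-value sets a difference against the spread between such replicates, estimated in part across all genes tested. No source used here says how the shScr1 and shScr2 constructs differ, or whether they were infected, cultured, labelled or scanned together. The construct and any batch that follows it therefore cannot be told apart. No uninfected culture was analysed here, so no difference can be placed in one group or the other.

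A scrambled control carries the vector and its selection marker but an RNA without an intended target, so it stands for the response to infection, selection and small-RNA expression. VSMC in culture move along a range from a contractile state, rich in smooth muscle actin and its partners, to a synthetic state that secretes matrix and divides. Viral nucleic acid can start an interferon response, in which secreted interferon acts on genes whose promoters carry interferon-stimulated response elements.

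Of the VSMC markers, Acta2 (smooth muscle alpha-actin), Actg2 (enteric smooth muscle actin), Tagln (transgelin) and Smtn (smoothelin) were detected on all 4 arrays. Myh11 (smooth muscle myosin heavy chain), Cnn1 (calponin), Mylk (myosin light chain kinase) and Myocd (myocardin) were detected on none, and Lmod1 (leiomodin) was detected on 1. The actin markers of the labelled cell type were thus present, while several markers of the mature contractile state were below detection. Between 11589 and 12040 probes were detected on each array. Before normalization the upper quartiles of intensity were higher on both shScr1 arrays (252.4 and 232.5) than on both shScr2 arrays (224.7 and 201). The median intensities did not separate the groups, at 116.2 and 115.1 in shScr1 against 116.7 and 103.4 in shScr2. The part of these intensities in the results was not tested beyond the alternative scalings. After normalization, arrays of 1 group correlated across genes at r = 0.993 and 0.994, and arrays of different groups at 0.981 to 0.983. These correlations describe genes, which are not independent replicates.

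The scrambled groups differed in 485 of the 7885 genes, which is 6.15% (limma, Benjamini-Hochberg adjusted p under 0.05). Of these, 203 (2.57%) were higher and 282 (3.58%) lower in shScr2. Among the called genes, 166 differed at least 2-fold, 61 of them higher and 105 lower, and 14 differed at least 4-fold, 3 higher and 11 lower. The smallest called difference was 0.54 on the log2 scale, and the median size was 0.85 among called genes against 0.19 among all genes. The split between directions depended on scaling: with the arrays scaled to a common median in place of quantile normalization, 125 were higher and 384 lower, with the median of all genes at −0.08 rather than 0.01.

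The spread between replicates was smaller than the distance between groups. Over all genes tested, A-minus-B differences had an SD of 0.246 in shScr1 and 0.268 in shScr2, whereas differences between single arrays of different groups had SDs of 0.398 to 0.428. Only 7 genes differed at least 2-fold between the shScr1 replicates and 38 between the shScr2 replicates, against 205 to 241 between single arrays of different groups. In 4327 genes (54.9%) the arrays of the groups did not overlap, shared almost equally between 2168 higher and 2159 lower in shScr2, and all 485 called genes were among them. With 2 arrays a group, an exact permutation test cannot go below p = 0.333 for a single gene, so the calls rest on the spread that limma shares across genes.

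**Figure D1:**
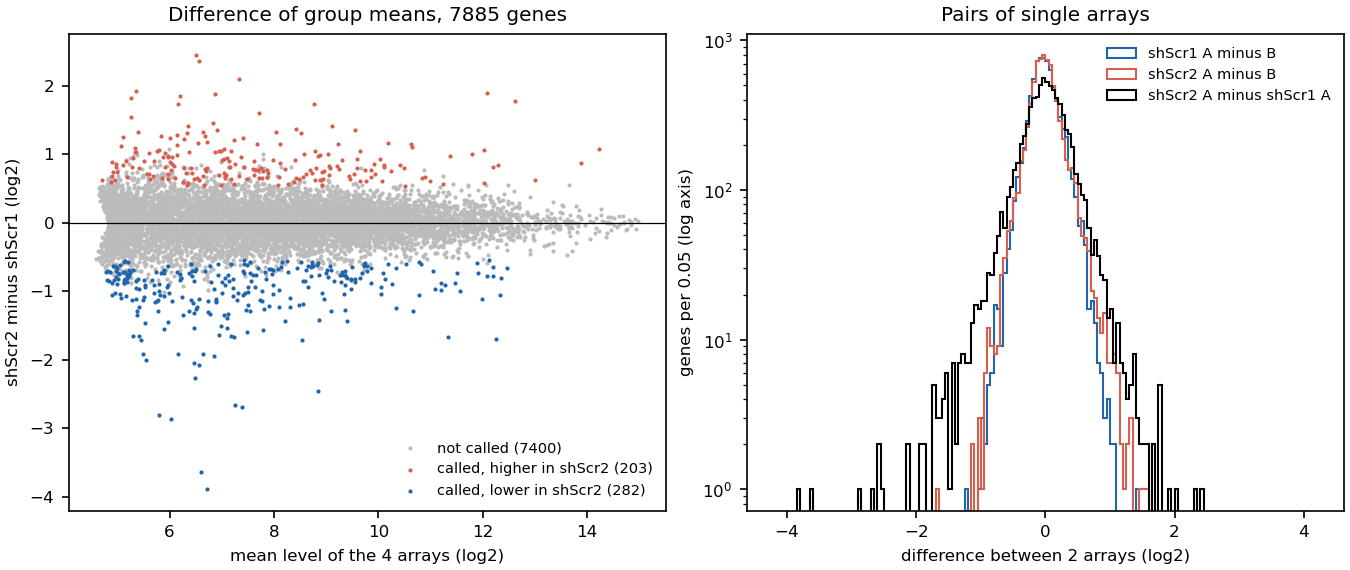
Left, the difference between group means (shScr2 minus shScr1, log2) against the mean level of the 4 arrays (log2) for each of the 7885 genes tested, with the 203 genes called higher and the 282 called lower in colour. Right, histograms of the difference between pairs of single arrays (log2, with genes counted on a log axis), where the pair from different groups is broader than the replicate pairs.

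The number of calls was small with an array left out and when the miR-128 arrays entered the fit. Leaving out an array gave 54 calls without shScr1 A, 49 without shScr1 B, 38 without shScr2 A and 60 without shScr2 B, the lone array being assumed to vary like the other group. When the miR-128 arrays entered the fit and added their own spread, 23 genes were called, 6 higher and 17 lower. Every one of the 485 genes kept its direction in each of these fits. With an array left out this was fixed in advance, because the groups overlapped in none of these genes.

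**Figure D2:**
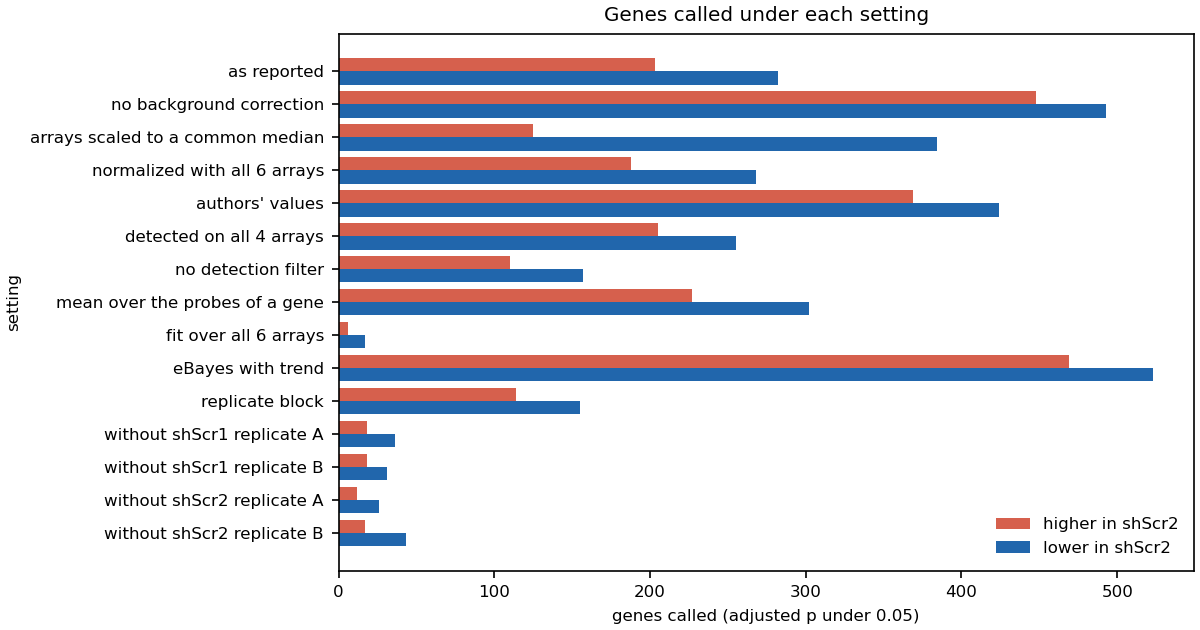
Genes called higher and lower in shScr2 (bars from 0, adjusted p under 0.05) as reported and under each other setting. Calls ranged from 23 with all 6 arrays in the fit to 992 with a trend in the prior.

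The interferon-response list held the most called genes. Of its 28 tested members, 16 were lower in shScr2 and 1 was higher, against 3.58% and 2.57% of all genes, and the list median was −0.72 against 0.01. Because 10 of the 28 were not detected on all 4 arrays, the 18 that were give a second count: 8 were lower, 1 was higher and their median was −0.43. A further 13 members with a probe were not tested, 10 of them detected on none of the 4 arrays. Fewer members were called lower with any 1 array left out, and 0 with the miR-128 arrays in the fit. In these fits the list median stayed between −0.77 and −0.70. Over the other settings it ran from −0.83 with median scaling to −0.17 on the authors' values.

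Promoters are shown for 3 of these genes because the response element is the sequence by which interferon genes are known to be controlled. The letters GAAANNGAAA, the core of that element, were searched on both strands in the 250 bases before the transcription start, in RefSeq promoters of GRCm38.p6, and overlapping matches were counted apart. This motif was chosen after the values were seen. Each line gives 120 bases, 5′ to 3′ on the strand of the gene and with the matches in capitals, which show the reverse complement of the letters where the match lies on the other strand. The windows are chr4:156200820-156200939 on the minus strand for Isg15, chr19:34583352-34583471 on the plus strand for Ifit3 and chr12:26456508-26456627 on the minus strand for Rsad2.
Isg15: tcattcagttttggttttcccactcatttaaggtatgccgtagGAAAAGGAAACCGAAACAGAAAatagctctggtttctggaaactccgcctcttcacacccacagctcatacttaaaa
Ifit3: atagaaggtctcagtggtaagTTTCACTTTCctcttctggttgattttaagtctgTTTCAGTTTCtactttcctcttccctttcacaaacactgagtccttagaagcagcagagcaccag
Rsad2: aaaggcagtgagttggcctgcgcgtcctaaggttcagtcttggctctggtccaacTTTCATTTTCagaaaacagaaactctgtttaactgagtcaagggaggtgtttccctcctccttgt
The Isg15 window held 3 overlapping matches, the Ifit3 window 2 and the Rsad2 window 1. Of the 16 members lower in shScr2, 11 had a promoter in the reference and 6 of those held a match; of the 12 other tested members, 9 had one and 4 held a match. Among all genes with a promoter there, 3.46% held a match. A match is a description of letters and shows no binding.

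Isg15, a ubiquitin-like protein that is attached to other proteins during the interferon response, was at 7.88 and 7.75 (log2 level) on the shScr1 arrays and at 5.96 and 5.79 on the shScr2 arrays. The groups did not overlap, and the difference was −1.94 ± 0.12 (SE; limma adjusted p = 0.00252), 3.83-fold lower. Usp18, the protease that removes Isg15 from proteins and damps interferon signalling, was at 7.44 and 7.77 in shScr1 and at 5.74 and 4.96 in shScr2. It was lower by more than the spread (−2.26 ± 0.27; limma adjusted p = 0.0133), although its shScr2 arrays lay farther apart than those of most genes and it lost its call without shScr1 A (adjusted p = 0.063) or shScr1 B (0.0883). Its other probes were also lower in shScr2, where one was detected on 1 array and the other on none.

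Irf9, the DNA-binding part of the interferon-activated transcription factor, was at 8.11 and 8.28 in shScr1 and at 6.91 and 6.90 in shScr2 (−1.29 ± 0.12; limma adjusted p = 0.00694). Ifit3, an antiviral RNA-response protein, was at 7.29 and 7.64 against 6.24 and 6.37 (−1.16 ± 0.15; limma adjusted p = 0.0165). Both genes were apart in the groups. Ifit2, a close relative of Ifit3, ran the other way, at 6.54 and 6.82 in shScr1 against 7.43 and 7.40 in shScr2 (0.73 ± 0.14; limma adjusted p = 0.0386), and its second probe gave 0.85.

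Several antiviral effectors were detected in shScr1 only, so the arrays give a lower bound on their difference. They passed the detection filter only through shScr1, where they are high, so their calls are no separate support. The bound sets the mean of the brighter group against the higher, on each array of the other group, of its lowest detected level and the probe's own level. Each adjusted p is for the full difference, which uses levels below detection, and not for the bound. Oasl2, of the oligoadenylate synthetase-like family, was detected on both shScr1 arrays (6.31 and 6.58) and on neither shScr2 array, and was at least 3.11-fold lower there (limma adjusted p = 0.00364). Rsad2, the antiviral enzyme viperin, was at 6.14 and 6.35 in shScr1 and undetected in shScr2, at least 2.70-fold lower (limma adjusted p = 0.00433). The chemokine Cxcl10 was at least 1.53-fold lower and Oas2 at least 1.46-fold lower, on the same terms. Dhx58, a sensor of viral RNA, and Igtp, an interferon-inducible GTPase, were each detected on both shScr1 arrays and on 1 shScr2 array, with differences of −1.45 and −1.35.

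Not all interferon genes followed. Stat2, which partners Irf9, differed by −0.10 (limma adjusted p = 0.85), Irf1 by −0.31 (0.261) and Gbp2, a guanylate-binding protein, by −0.40 (0.109). Among 12 tested genes of MHC class I antigen presentation, 2 were lower and none was higher, against 3.58% and 2.57% of all genes. The 2 were the peptide transporter subunit Tap2 (−0.73) and the immunoproteasome subunit Psmb9, which the interferon list also holds (−0.72, detected on 1 of the shScr2 arrays). None was called once any 1 array was left out. B2m, the light chain of MHC class I, differed by 0.11 (limma adjusted p = 0.609). The next genes lie outside the list and were picked after their values were seen, because they were lower, so they add nothing to its count. Ifitm3, a membrane protein that restricts virus entry, was at 12.88 and 12.82 against 11.79 and 11.80 (−1.06 ± 0.11; limma adjusted p = 0.00935), and Irgm2, Uba7 and Casp4 were lower by 1.14, 1.13 and 1.26.

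**Figure D3:**
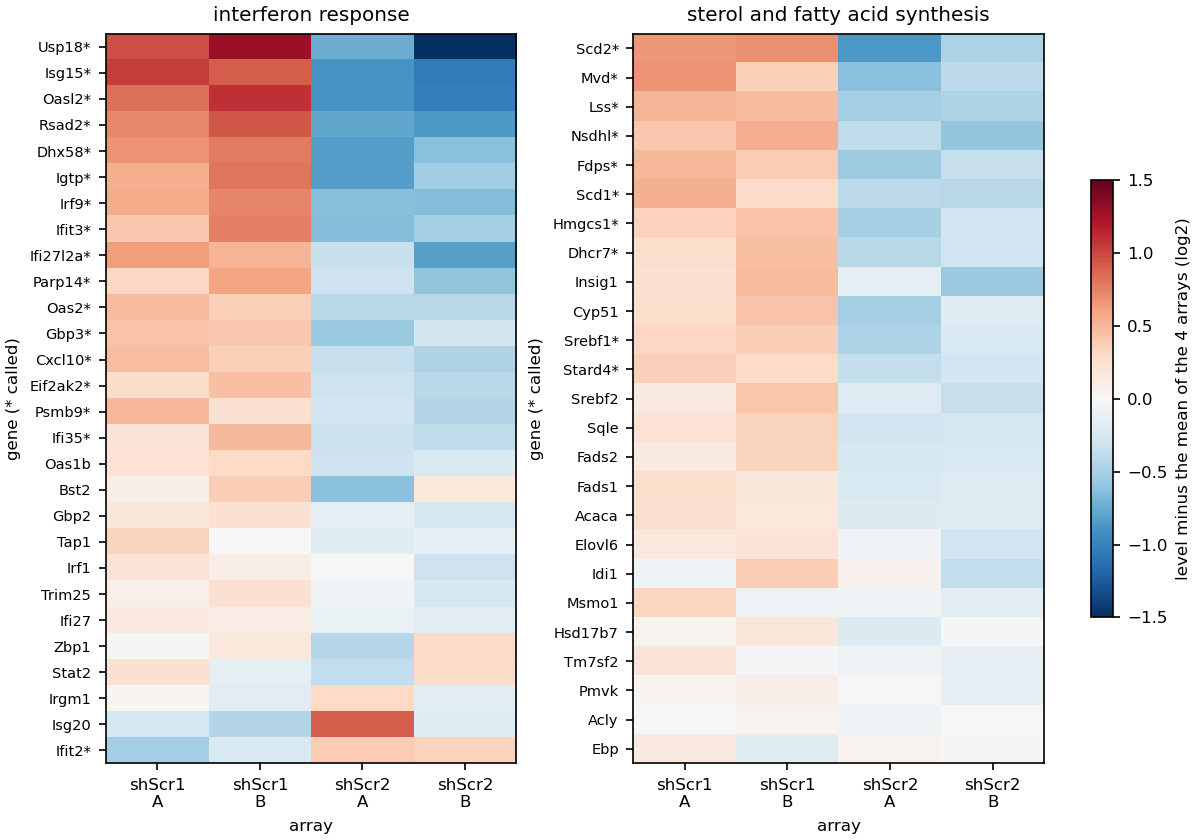
Level on each of the 4 arrays minus the mean of the 4 (log2, colour) for the 28 tested interferon-response genes (left) and the 25 tested genes of sterol and fatty acid synthesis (right), ordered by the difference between groups, with called genes starred. Most rows are red in both shScr1 columns and blue in both shScr2 columns, and Ifit2 is the called gene that runs the other way.

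The genes of sterol and fatty acid synthesis, the SREBP-controlled pathways that make cholesterol and membrane lipid, were the second group of lower genes. Of 25 tested members, 10 were lower in shScr2 and none was higher, against 3.58% and 2.57% of all genes. A negative difference was found in 24 of 25, and the median was −0.55. On the 22 members detected on all 4 arrays, 8 were lower and the median was again −0.55. The count was 0 without shScr1 A, without shScr1 B or without shScr2 A, 1 without shScr2 B and 0 with the miR-128 arrays in the fit. In these fits the list median stayed between −0.61 and −0.49, while over the other settings it ran from −0.66 with median scaling to −0.30 on the authors' values.

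Hmgcs1, the HMG-CoA synthase at the start of the pathway, was at 12.55 and 12.63 in shScr1 against 11.71 and 11.92 in shScr2 (−0.78 ± 0.13; limma adjusted p = 0.0267). Fdps, farnesyl diphosphate synthase, was at 11.96 and 11.84 against 10.93 and 11.11 (−0.88 ± 0.13; limma adjusted p = 0.0197). Lss, lanosterol synthase, was at 8.60 and 8.57 against 7.58 and 7.63 (−0.98 ± 0.11; limma adjusted p = 0.0112). In each of these enzymes the groups did not overlap.

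Mvd, Nsdhl and Dhcr7, at the middle and the end of the pathway, were lower too, Mvd by 1.02, Nsdhl by 0.96 and Dhcr7, undetected in shScr2, at least 1.58-fold. The other probes of Nsdhl gave −0.575, −1.09 and, on the dimmest, 0.00, so its probes disagree. The stearoyl-CoA desaturases Scd2 and Scd1, which make monounsaturated fatty acids, differed by −1.33 ± 0.16 and −0.81 ± 0.13. Srebf1, encoding the SREBP that drives fatty acid genes, was lower by 0.68 and was detected on 1 of the shScr2 arrays, and Srebf2, encoding the SREBP of the sterol genes, differed by −0.55 without passing (limma adjusted p = 0.0886). Ebp, a sterol isomerase, was the member with a positive difference (0.04; limma adjusted p = 0.898). The acetyl-CoA synthetase Acss2, named after its value was seen, was lower by 1.28 (limma adjusted p = 0.00935).

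Of the 26 unfolded protein and integrated stress response genes, 5 were lower and 1 was higher, against 3.58% and 2.57% of all genes. Their median was −0.48, and the same 5 and 1 stood among the 24 detected on all 4 arrays. Trib3, a pseudokinase induced by amino acid shortage and stress, was at 7.59 and 7.62 in shScr1 against 5.74 and 5.64 in shScr2 (−1.92 ± 0.11; limma adjusted p = 0.00237). Ddit3, the stress transcription factor CHOP, was at 9.90 and 9.82 against 8.62 and 9.03 (−1.04 ± 0.16; limma adjusted p = 0.0253), and its second probe gave −0.97. Chac1, a glutathione-degrading enzyme of the same response, was lower by 1.24, Vldlr, a lipoprotein receptor, by 1.03 and Herpud1, of ER-associated degradation, by 0.71.

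The ER folding enzyme Pdia6 was the higher member (0.69 ± 0.11; limma adjusted p = 0.0285). Atf4, the transcription factor at the centre of the response, differed by −0.50 (limma adjusted p = 0.122). The amino acid enzymes Asns, Psat1, Shmt2 and Mthfd2 lay between −0.60 and −0.48 and did not pass, and Phgdh was at −0.02. With any 1 array left out, the count called lower was 1.

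Muscle genes ran mostly the other way. All 10 tested contractile genes had a positive difference, with a median of 0.27, and all 10 were detected on all 4 arrays. Of them 2 were called higher, against 2.57% of all genes. A further 14 members with a probe were not tested, 10 of them detected on no scrambled array. The count was 1 without shScr1 A and 0 without each of the other 3 arrays.

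Acta2 was at 13.39 and 13.52 in shScr1 against 14.31 and 14.34 in shScr2 (0.87 ± 0.12; limma adjusted p = 0.0167), and its 3 dimmer probes gave 1.25 to 1.33. Actg2 was at 5.53 and 5.26 against 6.66 and 6.59 (1.23 ± 0.13; limma adjusted p = 0.0106). The groups did not overlap for either gene. Tagln, at 4.78 and 4.94 against 5.08 and 5.34, lay near the lowest detectable level and did not pass (0.35; limma adjusted p = 0.207), and Tpm2, a tropomyosin, did not either (0.47; 0.0698).

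Of 7 tested striated muscle and stretch genes, 4 were higher in shScr2, against 2.57% of all genes, and none was lower (median 0.77), while 12 others with a probe were not tested. Acta1 passed the detection filter only through shScr2, where it is high. On the 5 members detected on all 4 arrays, 3 were higher and the median was again 0.77, against 2.53% higher among all such genes. Nppb, the precursor of B-type natriuretic peptide, was at 5.51 and 5.25 in shScr1 against 7.84 and 7.63 in shScr2 (2.36 ± 0.15; limma adjusted p = 0.00237), 5.12-fold higher. Acta1, skeletal muscle actin, was undetected on both shScr1 arrays and at 6.13 and 6.21 in shScr2, at least 2.57-fold higher. Its limma adjusted p of 0.00237 is for the full difference, which uses levels below detection, and not for that bound. Fhl2 and Ankrd1, a LIM-domain protein and a stretch-responsive ankyrin-repeat protein, were higher by 0.81 ± 0.11 and 0.77 ± 0.12. With any 1 array left out, the count called was 2.

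The promoter of Acta1 is shown because the CArG box, the binding sequence of serum response factor (SRF), is the known control element of muscle actins. It covers chr8:123894784-123894903 (GRCm38.p6) on the minus strand, with the CArG letters in capitals, searched on both strands.
Acta1: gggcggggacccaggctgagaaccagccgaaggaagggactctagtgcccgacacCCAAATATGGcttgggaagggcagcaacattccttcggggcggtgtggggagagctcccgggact
Of the 6 contractile or striated genes higher in shScr2, 5 had a promoter in the reference and 2 (Acta1 and Fhl2) held a CArG box; of the 11 other tested members, 10 had one and 2 held it. Among all genes there, 1.62% did. The letters TATAAA stood in 3 of those 5, in 2 of those 10 and in 14.3% of all genes. These counts describe letters in 250 bases and nothing of SRF binding.

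SRF and MRTF targets outside the contractile list had a median of 0.22 and none lower. Of 13, 3 were higher, against 2.57% of all genes (Lims2, Wdr1 and Ankrd1, which the striated and YAP lists also hold). The count was 1 with any 1 array left out, with the miR-128 arrays in the fit and with a replicate block. Lims2, a LIM-domain adaptor of integrin adhesions, was at 5.97 and 5.88 against 7.77 and 7.83 (1.87 ± 0.11; limma adjusted p = 0.00237), and its other probes gave 1.97 and 0.96. Wdr1, an actin-disassembly factor, was higher by 0.57, and its second probe gave 0.44. Adjusted over probes in place of genes, neither probe of Wdr1 passed (limma adjusted p = 0.057 and 0.1425). Srf itself differed by 0.30 (limma adjusted p = 0.188), Vcl (vinculin) by 0.05 and Zyx (zyxin) by 0.01.

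Targets of YAP and TEAD, the transcription factors that respond to cell stretch and density, had a median of 0.56. Of 14, 5 were higher and 1 was lower, against 2.57% and 3.58% of all genes. The 12 detected on all 4 arrays gave the same counts. Ccn2, a secreted matricellular growth regulator, was at 13.71 and 13.69 against 14.73 and 14.82 (1.07 ± 0.11; limma adjusted p = 0.00935). Ccn1, of the same family, was at 9.56 and 9.58 against 10.38 and 10.62 (0.93 ± 0.13; limma adjusted p = 0.0188). Gadd45b, Nuak2 and Ankrd1 were the other higher members, and Tgfb2 was the lower one (−0.78). With any 1 array left out, none of the 14 was called.

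**Figure D4:**
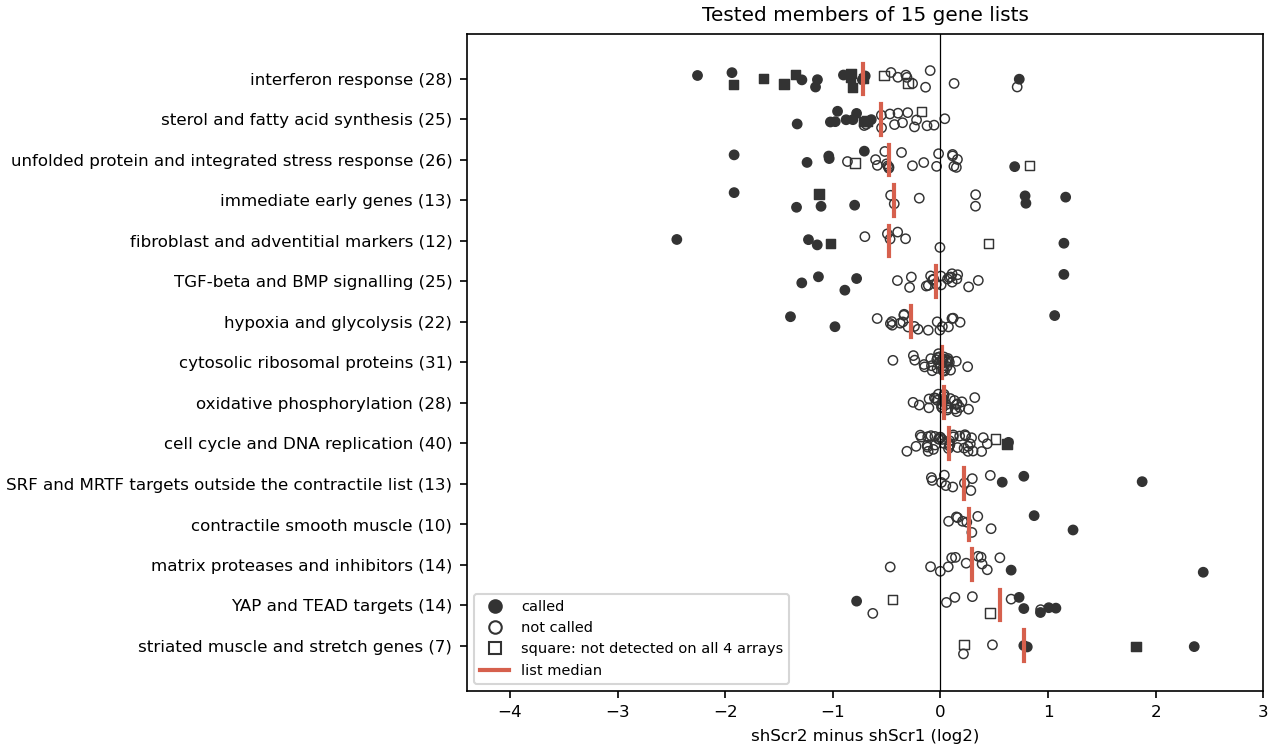
The difference shScr2 minus shScr1 (log2) for each tested member of 15 gene lists, with called genes filled, members not detected on all 4 arrays as squares and the list median as a bar. The medians of the interferon, sterol and stress-response lists lie to the left of 0, those of the muscle and YAP lists to the right, and those of ribosomal proteins and oxidative phosphorylation close to 0.

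The largest single differences came from many pathways. Mmp13, collagenase 3, was the gene of largest called increase among those detected on all 4 arrays, at 5.25 and 5.31 in shScr1 against 7.66 and 7.79 in shScr2 (2.44 ± 0.12; limma adjusted p = 0.00149), 5.43-fold. Parm1, a mucin-like membrane protein, was at 6.37 and 6.19 against 8.38 and 8.37 (2.09 ± 0.12; limma adjusted p = 0.00237), while its second probe, undetected in shScr1, gave 0.52. Nqo1, a quinone reductase and a classic NRF2 target, was at 7.80 and 7.99 against 9.56 and 9.71 (1.74 ± 0.13; limma adjusted p = 0.00383).

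The proliferin genes Prl2c4 and Prl2c3, encoding placental prolactin-family hormones, were at 11.08 and 11.18 against 13.01 and 13.05, and at 11.68 and 11.78 against 13.47 and 13.53. They differed by 1.90 ± 0.11 and 1.77 ± 0.11, but these near-identical genes can share signal on an array. The same holds for Klra4, an NK-cell receptor of a large family, at 1.42. The others of the 15 highest were the serine protease Klk8 (1.85), the cysteine protease Ctsw (1.73), the transcription factors Klf2 (1.60) and Mycl (1.40), the matrix protein Tnc (1.45), the crosslinking enzyme Tgm2 (1.37) and the sulfotransferase Chst7 (1.36). One dim probe of Tnc gave 0.16.

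On the lower side, Angpt2, a ligand of the endothelial receptor Tie2, was at 8.69 and 8.78 in shScr1 against 6.10 and 6.01 in shScr2 (−2.68 ± 0.11; limma adjusted p = 0.00143), 6.41-fold. Rgs4, which shortens G-protein signalling, was at 8.63 and 8.54 against 6.04 and 5.82 (−2.65 ± 0.13; limma adjusted p = 0.00149). Dcn, the collagen-binding proteoglycan decorin, was at 10.16 and 9.97 against 7.63 and 7.60 (−2.45 ± 0.12; limma adjusted p = 0.00156), and its second probe gave −2.27. In none of these genes did the groups overlap, as the rule for naming them requires.

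Mgp, the matrix Gla protein that inhibits calcification of arteries, was at 12.14 and 12.20 against 10.52 and 10.48 (−1.67 ± 0.11; limma adjusted p = 0.0026). Mt1, a metal-binding metallothionein, was lower by 1.69, and other members of its family may add to its signal. The rest of the 15 lowest, besides Usp18, Isg15 and Trib3, were the protease Bace2 (−2.07), the glycogen-targeting phosphatase subunit Ppp1r3c (−2.04), Egr2 (−1.92), the protease inhibitor Serpinb1a (−1.71), Osgin1 (−1.67), lipoprotein lipase Lpl (−1.65) and stanniocalcin Stc2 (−1.64).

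Of these 30 genes, 23 to 28 kept their call when an array was left out. Tgm2, Tnc and Usp18 lost it without shScr1 A, and Chst7 and Usp18 without shScr1 B. Chst7, Klf2, Klra4, Mycl, Serpinb1a, Tgm2 and Tnc lost it without shScr2 A, and Chst7, Klf2, Tgm2 and Tnc without shScr2 B. With the miR-128 arrays in the fit 8 kept it (Bace2, Dcn, Egr2, Lims2, Mycl, Osgin1, Parm1 and Rgs4). All 30 kept their direction throughout, which the rule for naming them fixes in advance where an array is left out.

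**Figure D5:**
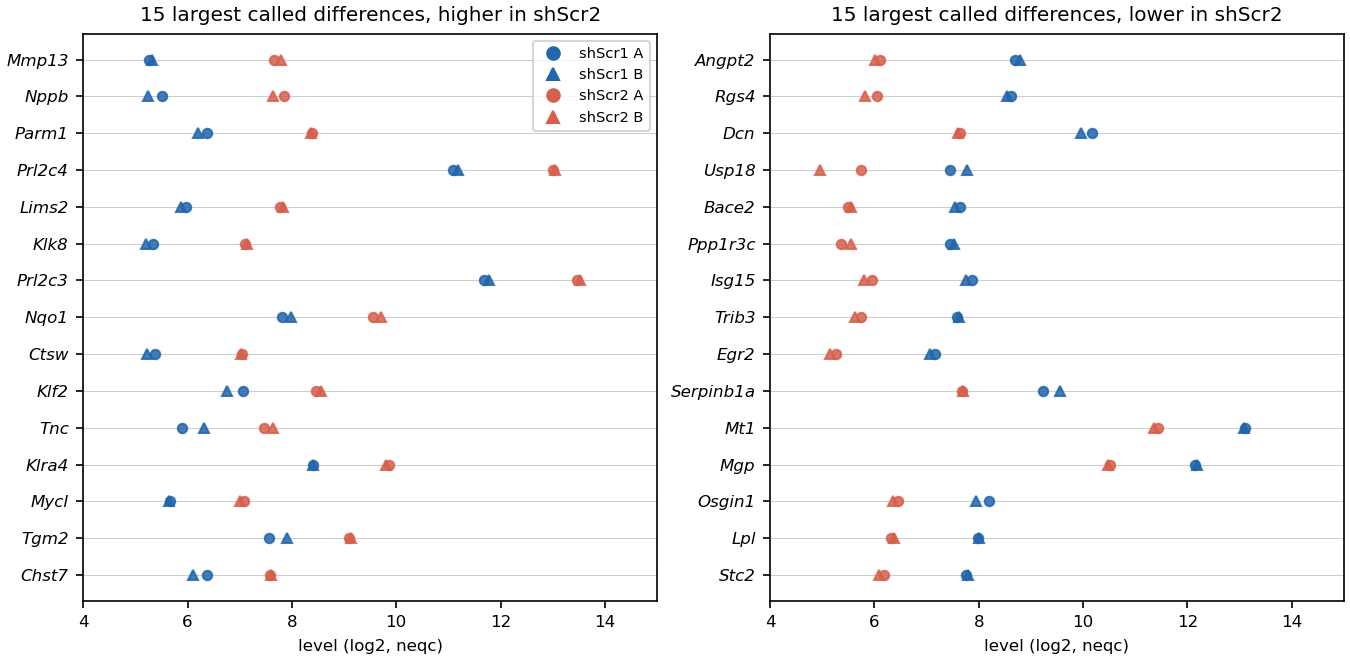
Level (log2 after neqc) on each of the 4 arrays of the 15 genes with the largest called increase and the 15 with the largest called decrease in shScr2, among genes detected on all 4 arrays. The shScr1 and shScr2 points lie apart in every row, as the rule for naming these genes requires, and the Usp18 points of shScr2 are spread the most.

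Il33 and Gdf10 were detected on both shScr1 arrays but on only 1 of the shScr2 arrays, so the sizes that follow rest in part on levels not above background. Il33, an alarmin cytokine, was at 8.77 and 8.55 in shScr1 against 4.97 and 4.58 in shScr2 (−3.88 ± 0.17; limma adjusted p = 0.00143). Gdf10, a TGF-beta family ligand named after its value was seen, was at 8.48 and 8.34 against 4.86 and 4.70 (−3.63 ± 0.13; limma adjusted p = 0.00143). On shScr2 B both lay below the lowest detected level of that array, 4.83.

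In all, 128 genes were detected on both shScr1 arrays and on neither shScr2 array, 33 of them called, and 113 showed the reverse, 16 of them called. All of these passed the filter only through the group where they are high, so their calls are no separate support. The largest bounds were for the oxygenase Fmo1 (at least 6.28-fold lower in shScr2) and the chemokine Cxcl15 (at least 5.22-fold lower). They were followed by 6430548M08Rik (3.33), Oasl2, the actin-severing protein Scin (2.83), Rsad2 and the neurotrophin receptor Ntrk3 (2.48), all lower. On the other side, S100a7a was at least 2.86-fold higher, Acta1 at least 2.57-fold and Rgs16, a relative of Rgs4, at least 2.32-fold.

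Immediate early genes, the first to respond to growth factors, were mixed. Of 13, 3 were higher and 5 lower, against 2.57% and 3.58% of all genes. Egr1 was at 12.52 and 12.57 in shScr1 against 11.46 and 11.41 in shScr2 (−1.11 ± 0.11; limma adjusted p = 0.00891). Fos was at 7.56 and 7.32 against 6.31 and 5.89 (−1.34 ± 0.18; limma adjusted p = 0.0167), and Egr2, Junb (−0.80) and Atf3 (−1.13, detected on 1 of the shScr2 arrays) were lower too. Dusp1, a phosphatase that turns off MAP kinases, was higher by 1.16, and the AP-1 subunits Fosl1 and Jun were each higher by 0.79. With any 1 array left out, 1 member was called lower and none higher.

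Regulators of the smooth muscle state were also split, 2 higher and 2 lower of 9, against 2.57% and 3.58% of all genes. Klf2 and Klf5 were higher (1.60 and 0.91), and Prrx1 and Gata6, transcription factors of mesenchymal and vascular cells, were lower (−0.82 and −0.57). Klf4, a repressor of the contractile state, did not pass on its brightest probe (−0.42; limma adjusted p = 0.118), while another of its probes gave −0.95. Synthetic-state genes gave 4 higher and 2 lower of 13: Tnc, Thbs1 (thrombospondin, 1.05), Ccn1 and Ccn2 against Dcn and Mgp. Vim (vimentin) differed by −0.06. With an array left out, the synthetic list gave 2 lower each time and 1 higher without shScr1 B but 0 higher without any other. The regulators gave 0 lower each time, and 1 higher without shScr1 A or shScr1 B and 0 without shScr2 A or shScr2 B.

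Among 11 collagens, Col6a2 and Col6a1 were lower (−1.27 ± 0.11 and −0.80 ± 0.11) and Col5a2 was higher (0.81 ± 0.16), while Col1a1 (−0.40) and Col3a1 (−0.79) did not pass. Of 15 elastic fibre and basement membrane genes, Fbln1 was lower (−0.93) and the microfibril protein Mfap5 higher (1.22). Of 14 matrix proteases and inhibitors, Mmp13 and Plaur, the urokinase receptor, were higher and none was lower. Among all genes 2.57% were higher and 3.58% lower, so 1 call in a list of this size is no result about it. With any 1 array left out, no collagen or elastic fibre gene was called and 1 matrix protease was. Mmp2 (0.00), Mmp14 (0.07) and Timp3 (0.14) did not pass.

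TGF-beta and BMP signalling gave 1 higher and 4 lower of 25, against 2.57% and 3.58% of all genes, with a median of −0.04. The lower count was 1 without shScr2 B and 0 without each other array, and the higher count was 0 each time. The ligand Bmp4 was at 11.22 and 11.41 in shScr1 against 9.93 and 10.12 in shScr2 (−1.29 ± 0.13; limma adjusted p = 0.00935). The receptors Tgfbr3 and Tgfbr2 and the ligand Tgfb2 were lower by 1.13, 0.89 and 0.78, and Inhba, the activin A subunit, was higher by 1.15. The transducers Smad1 to Smad6 tested here lay between −0.27 and 0.16.

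Growth factor signalling gave 1 higher (Igfbp4, 1.06) and 3 lower (Ntrk3, Igfbp5 and Vegfd) of 23. On its 19 members detected on all 4 arrays, 1 was higher and 1 lower. Against these and the next counts stand 2.57% higher and 3.58% lower among all genes. Of 23 cytokines and NF-kB targets, 3 were higher, the chemokine Ccl2 (0.90), the macrophage growth factor Csf1 (0.77) and the NF-kB inhibitor Tnfaip3 (0.95). Lower were 3, Il33, Cebpb (−0.54) and Cxcl10, which the interferon list also holds. Nfkbia, a direct NF-kB target, differed by 0.12 (limma adjusted p = 0.639). NRF2 targets were split as well, Nqo1 being higher and Osgin1, Gstm1 (−1.21) and Gstt1 (−1.13) lower, with Hmox1 (−0.07) and Gclm (0.07) not passing. The NRF2 list, with any 1 array left out, gave 1 higher and 1 lower. The cytokine list gave 1 lower each time, and 1 higher without shScr2 B but 0 without any other. The growth factor list gave 0 higher each time, and 1 lower without shScr1 A or shScr1 B and 0 without shScr2 A or shScr2 B.

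Read against the 6.15% of all genes called, lists of this size would hold few calls, so the counts of 0 that follow are no result about them. None of 31 cytosolic ribosomal protein genes, 28 oxidative phosphorylation genes, 22 lysosome and autophagy genes, 19 p53 and senescence genes or 15 genes of microRNA processing passed, with list medians between −0.003 and 0.033. Of 40 cell cycle genes, Rrm2 (0.63) and Ccna2 (at least 1.37-fold, undetected in shScr1) were higher and none was lower. On the 38 detected on all 4 arrays, 1 was higher (2.63%), close to the 2.53% of all such genes, and none was called with any 1 array left out. Cdkn1a, the p21 inhibitor, differed by 0.27 (limma adjusted p = 0.237). Hypoxia and glycolysis genes had 3 calls of 22 (13.6%), a median of −0.27 and 16 negative differences. Pdk1 (−1.39) and Pfkl (−0.98) were lower and Adm, the vasodilator adrenomedullin, was higher (1.06), while Gapdh differed by −0.21 without passing (limma adjusted p = 0.3). The lower count was 0 without shScr2 A and 1 without each other array, and the higher count was 0 each time. The brightest probe of Actb (beta-actin) was at 14.76 and 14.94 in shScr1 and at 14.94 and 14.76 in shScr2, near the top of the scale. Of its 4 other probes, 2 differed by 0.05 and −0.19 and the 2 dimmest by −0.68 and −0.79 (limma adjusted p = 0.0347 and 0.0339 over probes), so its probes disagree.

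Markers of other cell types differed too, and their part in the results above was not tested. In bulk RNA, fewer cells of a type and less RNA per cell cannot be told apart. The summed linear level of the 12 tested fibroblast and adventitial markers was 5871 and 5794 in shScr1 against 4521 and 4461 in shScr2. Dcn, Medag, Ly6c1 and Scara5 were lower and Pcolce2 was higher (1.15 ± 0.15). Scara5, undetected in shScr2 and at least 1.57-fold lower there, passed the filter only through shScr1. On the 10 members detected on all 4 arrays, 3 were lower and 1 was higher, against 3.2% and 2.53% of all such genes. The list median was −0.48, and with an array left out it ran from −0.69 to −0.34. Pdgfra (−0.47, limma adjusted p = 0.0726) and Thy1 (−0.01) did not pass, and among all genes 3.58% were lower and 2.57% higher. Dcn weighs most in that sum: without it, the other 11 summed to 4724 and 4794 against 4322 and 4268. The sum over the 10 contractile genes was 23170 and 23910 against 35380 and 34870, most of the rise being Acta2, and the other 9 summed to 12440 and 12130 against 15010 and 14140.

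Of 16 endothelial markers with a probe, 8 were detected on no scrambled array and 5 were tested. Ptprb (1.16) and Flt1 (0.86) were higher, against 2.57% of all genes. Kdr (0.30) was not called, nor was Esam, which ran the other way (−0.52, limma adjusted p = 0.164). The sum of the 5 was 592 and 697 in shScr1 against 801 and 855 in shScr2. Their median was 0.305, and with an array left out it ran from 0.13 to 0.48. Of 21 leukocyte markers with a probe, 14 were detected on no scrambled array, and the 3 tested (Lyz1, Lyz2 and Cd14) summed to 424 and 435 against 589 and 573, with no call. Among epithelial markers Krt14 was higher (1.23 ± 0.11, limma adjusted p = 0.00655). Of 3 tested adipocyte markers Lpl was lower (−1.65), while Pnpla2 (−0.31) and Pparg, which ran the other way (0.52), were not called. No call fell among the 3 tested pericyte markers or the 2 tested Schwann cell and neural markers, too few for a result about them.

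The miR-128 arrays share both control groups, so their levels are given beside them without a test, from a normalization over all 6 arrays. For the 15 genes highest in shScr2, the mean miR-128 level lay above both scrambled means in 8, between them in 5 and below both in 2. For the 15 lowest, it lay above both in 5, between them in 9 and below both in 1. These counts use the mean of the miR-128 arrays, whose positions can differ. Mmp13, counted above both, was at 10.41 and 7.79 beside a mean of 7.90 in shScr2. Serpinb1a, counted between, was at 7.70 and 9.16 beside means of 9.54 in shScr1 and 7.86 in shScr2. Angpt2 was at 7.61 and 9.82 on the miR-128 arrays, which differ too much for their mean to stand for either, beside means of 8.89 in shScr1 and 6.25 in shScr2. Dcn, at 10.23 and 9.86 in mir128, was −0.16 from shScr1 and 2.25 from shScr2, and Chst7, at 6.96 and 6.07, was 0.08 and −1.26 from them.

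Nqo1 was at 10.79 and 8.58 on the miR-128 arrays, on either side of its mean of 9.78 in shScr2, with 8.07 in shScr1. Acta2 was at 14.38 and 14.82, and its mean was 1.12 from shScr1 and 0.28 from shScr2. For Isg15 it was 1.45 from shScr1 and 3.36 from shScr2, with the miR-128 arrays at 8.09 and 10.78. Stc2, at 5.45 and 6.50, was −1.97 from shScr1 and −0.35 from shScr2.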

How the data were processed

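mRNA of 6 cultures was measured on Illumina bead arrays, and the 4 scrambled-control arrays are compared here. Per the file headers, the deposited non-normalized table held 1 intensity and 1 detection p-value per array for each of 25697 probes. The intensities are linear and were neither background-corrected nor normalized, as their unequal quartiles show. A second deposited table held the authors' values, on a log2-like scale from their range, with a median of 7.77 on each array. How it was transformed, normalized or centred is not stated in any source read here, and it served as an alternative only. GenomeStudio 2011.1, lumi and limma appear, with no role, in the submitters' processing notes. The deposited tables held 0 columns of per-sample values left unused.

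Intensities were corrected and normalized with neqc in limma 3.58.1 (R 4.3.3), over the 4 arrays, with background inferred from the detection p-values, an offset of 16, log2 and quantile normalization. A probe was kept if its detection p was under 0.05 on both arrays of at least 1 group. A single gene symbol was given for 23978 probes in GEO's platform annotation, several for 0 and none for 1719, and 23962 probes matched the reference gene table by Entrez number. The brightest kept probe stood for each gene, and among 2104 genes with several, 137 had a called probe, 36 had all called to 1 side and 0 to opposite sides. A model with a mean for each group was fitted with lmFit and eBayes (residual df 2, prior df 3.76, prior SD 0.134), and p was adjusted over 7885 genes at a threshold of 0.05. Values after ± are standard errors. The number of arrays limits the precision. The steps were tested on simulated data.

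The comparison, its members and the 32 gene lists were chosen with earlier results of these data known. The genes named are the 15 highest and 15 lowest called genes detected on all 4 arrays, the 10 largest bounds, up to 4 members of each list by unadjusted p, and 18 genes by name. Others were named after their values were seen, as exceptions or to complete a count. List symbols were matched for 795 genes, and 2 had no match. Alternatives were no background correction, median scaling, normalization of all 6 arrays, the authors' values, other filters, the mean over probes, a fit over all 6 arrays, a trend, a replicate block and leaving out each array. Promoter sequences are those of RefSeq for GRCm38.p6.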

Additional observations from a re-analysis of the deposited data

How the results depend on the processing

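The 485 called genes (203 higher, 282 lower in shScr2) kept their direction under every alternative in which they were tested. With an array left out this was fixed in advance, since the groups overlapped in none of them. A trend, a replicate block and the other detection filters used the same values, and the median ratio to the reported change was 1. The fit over all 6 arrays added the miR-128 group to these 4 arrays, and the ratio was 0.988. In those fits the kept direction is therefore no separate check. The count of calls did not hold. It rose to 941 (448 higher, 493 lower) without background correction, where changes were 0.625 times as large, to 793 (369, 424) on the authors' values, where they were 0.332 times as large, and to 992 (469, 523) with a trend. It fell to 267 (110, 157) without a detection filter, where 16593 genes were tested, and to 23 (6, 17) in the fit over all 6 arrays, which adds the spread of the miR-128 arrays. Median scaling gave 509 (125, 384), a share of 24.6% higher against 41.9%. Leaving out each array gave 38 to 60 calls, 12 to 18 higher and 26 to 43 lower, with 1 residual degree of freedom. Except where the construction is named, the cause was not tested. Whether equal replicate letters mark a shared preparation is not stated in any source used here. A minus B in shScr1 and in shScr2 correlated across genes at r = 0.162, which cannot settle it. With a replicate block 269 genes were called (114, 155). The other alternatives, normalization with all 6 arrays, genes detected on all 4 arrays and the mean over probes, gave 456 to 529. Near the lowest detected level, mean 4.81 on the log2 scale in each group, signal over background limits what can be seen.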

Other observations

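The following genes were chosen after their values were seen and are given as values. The first 4 belong, like Dcn, to the small leucine-rich proteoglycans. Ogn (osteoglycin) was at 9.76 and 9.39 in shScr1 against 8.21 and 8.10 in shScr2 (−1.42 ± 0.16; limma adjusted p = 0.0109), and Prelp was at 11.41 and 11.20 against 10.30 and 10.21 (−1.05 ± 0.13; limma adjusted p = 0.0138). Fmod (fibromodulin) was detected in shScr1 only. Bgn (biglycan) differed by −0.15 without passing (limma adjusted p = 0.524).

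Casp14, a caspase of the cornifying epidermis, was at 5.06 and 5.34 against 6.39 and 6.53 (1.26 ± 0.14; limma adjusted p = 0.0117). The desmosome protein Pkp1 was at 6.46 and 6.78 against 7.86 and 7.80 (1.21 ± 0.14; limma adjusted p = 0.0133), and Krt10 was higher by 0.77, while Krt19 and Cdh1 differed by 0.14 and −0.57 and did not pass. The epithelial and mesothelial list as a whole had 1 called of 6, with 3 positive and 3 negative differences and a median of −0.04.

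Bhlhe40, a transcription repressor linked to the circadian clock, was at 8.91 and 8.94 against 7.57 and 7.43 (−1.43 ± 0.12; limma adjusted p = 0.00484), and the clock-linked Ciart and Dbp were lower by 1.32 and 0.83. The acute-phase genes Cp (ceruloplasmin, −1.55) and Socs3 (−0.57) and the transcription factor Stat3 (−0.66) were lower too. Sox9, a chondrogenic regulator, was at 6.89 and 6.97 against 5.57 and 5.59 (−1.34 ± 0.11; limma adjusted p = 0.00487). Endothelin Edn1, a vasoconstrictor peptide, was higher, at 6.79 and 6.97 against 7.79 and 7.88 (0.96 ± 0.12; limma adjusted p = 0.0157).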
